A study of Homo sapiens with 12 samples.

Results

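The 6 genes described here encode parts of the MHC class II pathway: HLA-DRA, HLA-DMA, HLA-DMB, CD74, CIITA and CTSS. Their rows were found in the count table by matching Ensembl IDs to gene symbols, and they are 6 of its 60617 genes. RNA sequencing was done on 12 libraries of A549, an established human lung adenocarcinoma cell line, in 4 groups of 3. The first group had YTHDF1 knocked out and ARID1A knocked down with small interfering RNA (siRNA), and is called the combined group. The second had the YTHDF1 knockout alone (YTHDF1 KO), the next had the ARID1A knockdown alone (siARID1A), and the last was wild-type A549 (WT). YTHDF1 is a reader of N6-methyladenosine in RNA, and ARID1A is a subunit of the SWI/SNF chromatin remodelling complex. The titles call the YTHDF1 change a knockdown where the genotype labels call it a knockout. The labels used here name no control siRNA for WT or YTHDF1 KO, and do not say whether the knockout cells were 1 clone or a pool.

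MHC class II molecules are pairs of an alpha and a beta chain that show peptides from endosomes to CD4+ T cells. Their chains fold around the invariant chain CD74, cathepsins such as CTSS cut CD74 down to a short peptide in the groove, and HLA-DM, a pair of HLA-DMA and HLA-DMB, exchanges that peptide for others. CIITA is the coactivator that drives the genes of class II chains, HLA-DM and CD74 through RFX, CREB and NF-Y factors bound to their promoters. Professional antigen-presenting cells express CIITA constantly, and epithelial cells mainly under interferon-gamma.

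Library totals ran from 30220717 to 45042635 counts. The targeted transcripts were lower where the labels say so. The log2 difference of YTHDF1 between YTHDF1 KO and WT was -1.83 (adjusted p = 6.47e-16, edgeR), and that of ARID1A between siARID1A and WT was -1.95 (adjusted p = 1.03e-14). WT library 2 stood apart, with 4.85% of its counts from mitochondrial genes against 6.81% to 8.23% in the other 11 libraries. Of 18 markers of leukocytes and antigen-presenting cells, 5 passed the filter on low counts, CD1C was at 0 in every library, and PTPRC (CD45) had at most 8 counts. ITGAM, an integrin of myeloid cells, was counted in all libraries, with 94, 128 and 113 counts in the combined group, 92, 98 and 80 in YTHDF1 KO, 205, 275 and 170 in siARID1A and 72, 102 and 80 in WT. ITGAX, CD14, CD79A and LAPTM5 had lower counts, up to 65 in 1 siARID1A library for ITGAX. Of the 5, siARID1A had 2 called higher against WT, ITGAM and ITGAX, and the combined group and YTHDF1 KO had 1 each, ITGAX, with 0 lower. The list's summed level was 4.84 to 5.43 CPM (edgeR's counts scaled to library size) in the combined group, 4.06 to 4.61 in YTHDF1 KO, 9.22 to 11.4 in siARID1A and 3.10 to 5.37 in WT. All 5 epithelial markers were detected, led by the keratins KRT8 and KRT18, with a summed level of 2920 to 3140 CPM in the combined group, 2370 to 2560 in YTHDF1 KO, 4810 to 6520 in siARID1A and 5950 to 7990 in WT. That sum is almost wholly the 2 keratins, and other epithelial markers moved differently. CDH1 had 109 CPM in the combined group, 41.6 in YTHDF1 KO, 171 in siARID1A and 104 in WT, and EPCAM had 1.66 CPM in the combined group, 0.785 in YTHDF1 KO, 8.14 in siARID1A and 3.52 in WT. Of the 5, 0 were called higher and 3 lower in the combined group, 0 and 4 in YTHDF1 KO, and 3 and 1 in siARID1A, each against WT. Beside the counts of both marker lists, 25.6% of all genes tested were called higher and 25.9% lower in the combined group. Those shares were 19.6% and 20.8% in YTHDF1 KO, and 22.1% and 23% in siARID1A. The part of these marker differences in the results that follow was not tested.

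HLA-DMA, HLA-DMB and HLA-DRA lie in the MHC region of chromosome 6, which is highly variable between people and of which some reference assemblies hold alternate copies. Whether the authors' reference held those copies, and how reads matching several places were counted, is not given in the sources used here. Other genes of the region, chosen after their values were seen, were unevenly counted. The RNA helicase gene DDX39B had 5 to 60 counts and the kinase subunit gene CSNK2B had 44 to 123, while BAG6 between them had 5211 to 9261 and TUBB had 7087 to 13515. Levels of MHC genes relative to other genes, and counts of 0 among them, are therefore uncertain, and a 0 here is not evidence that a gene is silent. Among values from 1 to 20 counts, 68.2% to 72.0% were even numbers, so low counts cannot be taken as independent single reads. Floors given here cover only the counting error of independent reads, and may be too low.

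Of the 6 genes, 5 passed the filter on low counts, and HLA-DRA did not. In the combined group against WT, HLA-DMA, HLA-DMB, CD74 and CTSS rose, so that 4 of 5 were called higher and 0 lower. Over all 18524 genes tested, 25.6% were called higher and 25.9% lower in that comparison. In siARID1A against WT, HLA-DMA, HLA-DMB and CTSS rose, 3 of 5, where 22.1% of all genes were called higher and 23% lower. In YTHDF1 KO against WT, HLA-DMB and CTSS rose, 2 of 5, where 19.6% of all genes were called higher and 20.8% lower. These 3 comparisons share the WT libraries. No member fell against WT by the test, and with 5 genes such counts describe these genes only.

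Against each change alone, the combined group was again called higher for most of the 5 tested members. Against YTHDF1 KO, HLA-DMA, HLA-DMB, CD74 and CTSS were called higher, 4 of 5, where 12.5% of all genes were called higher and 10.9% lower. Against siARID1A, HLA-DMB, CD74 and CTSS were called higher, 3 of 5, where 18.2% of all genes were called higher and 17.2% lower. YTHDF1 KO and siARID1A differed in 1 of 5, HLA-DMA, which was lower in YTHDF1 KO. In that comparison 22.8% of all genes were called lower and 22.4% higher.

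Below, groups are also said to overlap or not, from the CPM of their libraries. Over all genes tested, every combined library lay above every WT library in 28.2%, above every YTHDF1 KO library in 22.5% and above every siARID1A library in 25.3%. Every library lay above WT in 24.1% of genes for YTHDF1 KO and 24.8% for siARID1A, and every YTHDF1 KO library lay below siARID1A in 28.1%. Groups of these members that do not overlap are to be read against those shares.

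Calls are edgeR's robust quasi-likelihood F test on the counts of all 12 libraries, two-sided, with Benjamini-Hochberg adjustment over all genes tested and a threshold of 0.05. Fold changes are on the log2 scale, with a standard error (SE) from the spread of log2 CPM between libraries, and levels are mean ± SD of n = 3 libraries. The titles call the libraries biological replicates without saying whether these were separate cultures, so the p-values measure the spread between libraries. The samples were bulk cultures, in which a change in the number of expressing cells and a change in RNA per cell cannot be told apart.

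**Figure D1:**
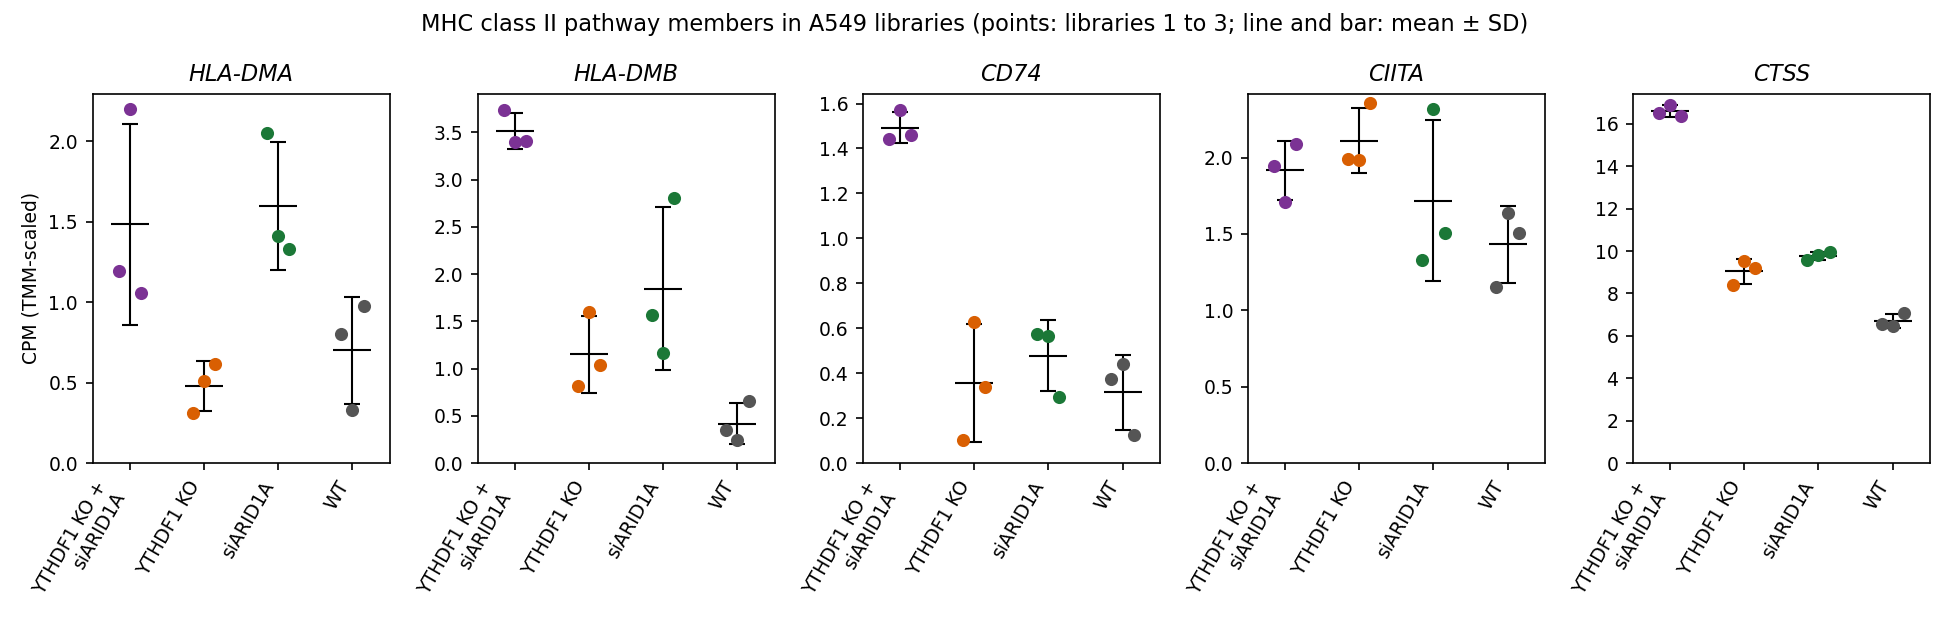
Level of the 5 tested members in every library, in CPM (linear axis from 0), by group. Points are libraries 1 to 3, the line is the mean and the bar is ± SD (n = 3). In HLA-DMB, CD74 and CTSS the 3 combined libraries lie above all 9 others, whereas HLA-DMA is at similar levels in the combined and siARID1A groups.

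Promoter sequences were at hand for 3 of the 6 members in RefSeq (GRCh38.p14), each running from 250 bases before to 50 after the annotated start. They are shown because these 3 genes moved in at least 1 comparison and class II promoters are known for an X and Y box module, in which a CREB-type X2 box lies upstream of a Y box bound by NF-Y. The windows are HLA-DMA at chr6:32953048-32953347, HLA-DMB at chr6:32940979-32941278 and CD74 at chr5:150412861-150413160, each on the minus strand and printed 5′ to 3′ in the direction of transcription. Capitals mark CCAAT, the core of the Y box, in either orientation (ATTGG is its reverse complement), and the hexamer TGATGA. The hexamer was chosen after these sequences were seen, and whether it lies in the X2 box of each gene was not tested.
HLA-DMA: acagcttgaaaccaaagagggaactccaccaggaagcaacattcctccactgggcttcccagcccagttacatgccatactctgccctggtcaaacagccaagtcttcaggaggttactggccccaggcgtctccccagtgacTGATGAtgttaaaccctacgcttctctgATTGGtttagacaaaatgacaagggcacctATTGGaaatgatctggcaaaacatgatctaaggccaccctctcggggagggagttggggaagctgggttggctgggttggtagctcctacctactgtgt
HLA-DMB: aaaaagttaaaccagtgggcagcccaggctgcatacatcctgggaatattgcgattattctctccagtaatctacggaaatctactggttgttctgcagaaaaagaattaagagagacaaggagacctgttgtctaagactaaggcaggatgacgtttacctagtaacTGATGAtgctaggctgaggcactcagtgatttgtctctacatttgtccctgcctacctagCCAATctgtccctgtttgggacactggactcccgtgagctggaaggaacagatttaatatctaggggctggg
CD74: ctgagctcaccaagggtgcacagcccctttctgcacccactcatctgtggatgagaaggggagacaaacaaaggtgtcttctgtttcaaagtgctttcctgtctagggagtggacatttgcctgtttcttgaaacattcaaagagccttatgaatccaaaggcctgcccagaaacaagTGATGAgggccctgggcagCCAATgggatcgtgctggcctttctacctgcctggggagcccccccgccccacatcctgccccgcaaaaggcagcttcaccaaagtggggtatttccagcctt
The HLA-DMA window held TGATGA with its first base 107 bases before the start, and reverse CCAAT at 79 and 49 bases before it. The HLA-DMB window held TGATGA at 82 and CCAAT at 22 bases before the start, and the CD74 window held them at 72 and 53. In all 3 windows TGATGA thus stood upstream of a CCAAT, at a distance that differed between windows. The search did not use spacing, so whether a marked CCAAT is the Y box of its gene was not tested. Over 35116 promoter windows of the same length, searched on both strands, 34.6% held CCAAT, 10.9% held TGATGA and 4.11% held both, in any order. Because TGATGA was chosen from these 3 windows, its presence in them is no test against those shares. TTCNNNGAA, a STAT-type motif, was in 0 of the 3 windows and in 7.66% of all. These are matches of letters and not mapped binding sites.

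CIITA, the coactivator of the pathway (ENSG00000179583, chromosome 16, 10866222 to 10943021, GRCh38, plus strand), was counted at a low level in every group and did not pass the test in any comparison. It had 62, 73 and 83 counts in combined libraries 1 to 3, 76, 82 and 84 in YTHDF1 KO, 44, 74 and 51 in siARID1A and 46, 74 and 48 in WT. Its level was 1.92 ± 0.192 CPM in the combined group, 2.11 ± 0.215 in YTHDF1 KO, 1.72 ± 0.527 in siARID1A and 1.43 ± 0.252 in WT. Scaled to the library, all 3 combined and all 3 YTHDF1 KO libraries lay above the WT libraries, while siARID1A overlapped every other group. CIITA differed from WT by 0.42 in the combined group (SE 0.17, adjusted p = 0.18), 0.56 in YTHDF1 KO (SE 0.17, adjusted p = 0.0833) and 0.26 in siARID1A (SE 0.28, adjusted p = 0.443). With library totals in place of TMM scaling, the YTHDF1 KO difference passed (0.64, adjusted p = 0.0493). The combined group differed by -0.14 from YTHDF1 KO (adjusted p = 0.752) and by 0.16 from siARID1A (adjusted p = 0.685), so neighbours in the order of levels did not differ beyond their spread. Of the CIITA exon bases, 23.4% also belong to other annotated genes, 11.5% on the same strand, and counts there cannot be assigned with certainty.

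The factors that bind class II promoters with CIITA moved in both directions. All 11 genes of a list of RFX, NF-Y and CREB-type factors and acetyltransferases passed the filter. In the combined group against WT, 2 were called higher and 3 lower, with a median difference of -0.19 against -0.01 over all genes. YTHDF1 KO had 4 higher and 1 lower against WT (median 0.00), and siARID1A had 0 higher and 5 lower (median -0.15, against -0.01 over all genes). Over all genes, 25.6% were called higher and 25.9% lower in the combined group. Those shares were 19.6% and 20.8% in YTHDF1 KO, and 22.1% and 23% in siARID1A. The list was not tested as a set. The counts for the list were not stable: they were 3 in place of 5 in the combined group without WT library 2, without combined library 1 or in a fit of those 2 groups alone, and 3 in place of 5 in YTHDF1 KO without WT library 3 or without YTHDF1 KO library 2.

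NFYB, a subunit of the CCAAT-binding factor NF-Y, rose by 0.60 in the combined group (SE 0.12, adjusted p = 2e-06) and by 0.51 in YTHDF1 KO (SE 0.10, adjusted p = 2.69e-05), and fell by 0.46 in siARID1A (SE 0.10, adjusted p = 0.000104), each against WT. CREB1, which binds the X2 box, fell by 0.79 in the combined group (adjusted p = 1.74e-08), 0.44 in YTHDF1 KO (adjusted p = 0.000102) and 0.40 in siARID1A (adjusted p = 0.000315). CREB1 lies on chromosome 2, whose 1231 tested genes had a median of -0.42 in the combined group and -0.41 in YTHDF1 KO but 0.01 in siARID1A; its part in the CREB1 values was not tested. Medians for the members' chromosomes 1, 5, 6 and 16 lay between -0.10 and 0.08 in the same comparisons. RFX5, the DNA-binding subunit of RFX, had 62.1 ± 2.05 CPM in the combined group, 67.7 ± 3.25 in YTHDF1 KO, 65.5 ± 4.54 in siARID1A and 67.1 ± 4.97 in WT, and did not pass the test against WT in any group.

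A list of genes that act between interferon-gamma and CIITA held activators and also repressors, among them PRDM1 and SOCS1. Of 11, 10 passed the filter; IFNG itself had 6 counts in WT library 2 and 0 in the other 11 libraries. In the combined group 7 were called higher and 1 lower against WT (median 0.49), in YTHDF1 KO 4 and 1 (median 0.12), and in siARID1A 5 and 2 (median 0.21). Over all genes 25.6% were called higher and 25.9% lower in the combined group, 19.6% and 20.8% in YTHDF1 KO, and 22.1% and 23% in siARID1A, and the list was not tested as a set. IRF1, an activator of CIITA, stood at 23.8 ± 1.24 CPM in the combined group, 12.1 ± 0.713 in YTHDF1 KO, 12.9 ± 1.88 in siARID1A and 7.30 ± 1.48 in WT. Against WT, IRF1 rose by 1.71 in the combined group (SE 0.17, adjusted p = 5.55e-11), 0.73 in YTHDF1 KO (SE 0.17, adjusted p = 7.27e-05) and 0.82 in siARID1A. PRDM1, which encodes BLIMP1 and represses CIITA in plasma cells, rose too.

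PRDM1 stood at 6.08 ± 0.875 CPM in the combined group, 3.47 ± 0.378 in YTHDF1 KO, 4.25 ± 0.249 in siARID1A and 0.822 ± 0.192 in WT. Its rises against WT were 2.89 (SE 0.22, adjusted p = 2.52e-11) in the combined group, 2.08 (SE 0.21, adjusted p = 1.84e-08) in YTHDF1 KO and 2.37 in siARID1A. IFNGR2, a chain of the interferon-gamma receptor, rose by 0.76 in the combined group (adjusted p = 7.37e-07) and by 0.64 in YTHDF1 KO (adjusted p = 1.34e-05). JAK1, a kinase of that receptor, fell by 0.68 in the combined group (adjusted p = 7.01e-08) and by 0.50 in siARID1A (adjusted p = 9.21e-06), and differed by -0.01 from WT in YTHDF1 KO. Of the IRF1 exon bases 22% lie opposite another gene, and of IFNGR2 12.8%, so their counts are less certain if strand was not used. The activator IRF1 and the repressor PRDM1 were thus both highest in the combined group, while CIITA did not pass the test.

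HLA-DRA, the alpha chain of HLA-DR (ENSG00000204287, chromosome 6, 32439842 to 32445046, plus strand), was at the floor. It had 0 counts in all 3 combined, all 3 YTHDF1 KO and all 3 siARID1A libraries, and 4, 0 and 0 counts in WT libraries 1 to 3. If reads were counted independently, a count of 0 over a whole group allows up to 3 counts. That is 0.0263 CPM in the combined group, 0.0261 in YTHDF1 KO and 0.0304 in siARID1A, and may be too low. The difference from WT was not detectable at this depth. Without the filter on low counts, its adjusted p ran from 0.333 to 1 over the 7 contrasts.

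The other 10 class II chains were also at or near 0, and 0 of them passed the filter. HLA-DRB1, HLA-DRB5, HLA-DPB1, HLA-DQA1, HLA-DQB1, HLA-DQA2, HLA-DQB2 and HLA-DOA had 0 counts in all 12 libraries. HLA-DPA1, the alpha chain of HLA-DP, had 8, 12 and 0 counts in the combined libraries, 0, 0 and 4 in YTHDF1 KO, 0, 2 and 0 in siARID1A and 2, 0 and 0 in WT. Its counts were highest in combined libraries 1 and 2 and 0 in combined library 3. HLA-DOB, the beta chain of the HLA-DM inhibitor HLA-DO, had at most 3 counts in any library. All lie in the MHC region, so the limit on counts of 0 given above applies to each of them.

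CD74, the invariant chain (ENSG00000019582, chromosome 5, 150401637 to 150412929, minus strand), was higher in the combined group than in each of the 3 others. It had 46, 67 and 58 counts in combined libraries 1 to 3, 4, 26 and 12 in YTHDF1 KO, 19, 18 and 10 in siARID1A and 15, 20 and 4 in WT. Its level was 1.49 ± 0.0689 CPM in the combined group, 0.357 ± 0.263 in YTHDF1 KO, 0.478 ± 0.158 in siARID1A and 0.314 ± 0.167 in WT. The 3 combined libraries were close together and above all 9 others, among which the groups overlapped. CD74 rose by 2.20 in the combined group against WT (SE 0.46, adjusted p = 0.00057), 4.58-fold, by 2.04 against YTHDF1 KO (SE 0.61, adjusted p = 0.00296) and by 1.64 against siARID1A (SE 0.28, adjusted p = 0.00881).

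Neither change alone passed the test for CD74. Against WT it differed by 0.15 in YTHDF1 KO (SE 0.77, adjusted p = 0.85) and by 0.56 in siARID1A (SE 0.54, adjusted p = 0.42). The sign in YTHDF1 KO depended on single libraries, at -0.18 without WT library 3 and -0.56 without YTHDF1 KO library 2. The test of whether siARID1A acted differently in the 2 backgrounds, the change in YTHDF1 KO minus the change in WT, gave 1.48 (SE 0.82, unadjusted p = 0.0503, adjusted p = 0.173) and did not pass.

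CD74 is also the receptor of the cytokine MIF, together with CD44 and CXCR4. Of 5 genes listed for that role, 2 passed the filter, CD44 and CXCR4. CXCR4 had 44, 48 and 40 counts in the combined libraries, 14, 20 and 16 in YTHDF1 KO, 24, 16 and 62 in siARID1A and 14, 24 and 6 in WT. It rose by 1.67 in the combined group against WT (SE 0.39, adjusted p = 0.00376). In siARID1A against WT both CXCR4 (1.48, adjusted p = 0.0117) and CD44 (0.21, adjusted p = 0.0205) passed, and neither passed without siARID1A library 3 (adjusted p = 0.241 for CXCR4 and 0.116 for CD44). MIF had at most 3 counts and its relative DDT at most 9 in any library, and CXCR2 had 0 throughout. MIF and DDT lie on chromosome 22, another region with alternate copies in some assemblies, so these counts carry the same uncertainty as those of the MHC.

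CTSS, cathepsin S (ENSG00000163131, chromosome 1, 150730196 to 150765957, minus strand), was the best counted member and rose in all 3 groups against WT. It had 527, 721 and 650 counts in combined libraries 1 to 3, 320, 394 and 328 in YTHDF1 KO, 317, 313 and 336 in siARID1A and 262, 293 and 226 in WT. Its level was 16.6 ± 0.268 CPM in the combined group, 9.04 ± 0.595 in YTHDF1 KO, 9.77 ± 0.180 in siARID1A and 6.71 ± 0.340 in WT. All 4 groups were apart, with the combined group highest and WT lowest.

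Against WT, CTSS rose by 1.31 in the combined group (SE 0.044, adjusted p = 3.16e-10), 2.48-fold, by 0.43 in YTHDF1 KO (SE 0.069, adjusted p = 0.00297) and by 0.55 in siARID1A (SE 0.044, adjusted p = 0.000307). It was higher in the combined group by 0.88 against YTHDF1 KO (adjusted p = 1.23e-06) and by 0.76 against siARID1A (adjusted p = 3.37e-06). YTHDF1 KO and siARID1A differed by -0.11 (SE 0.057, adjusted p = 0.439), although the libraries of YTHDF1 KO all lay below those of siARID1A. The change with siARID1A was larger in YTHDF1 KO than in WT by 0.33 (SE 0.072), which had an unadjusted p of 0.0431 and did not pass after adjustment (adjusted p = 0.156).

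CTSS belongs to a wider set of endosomal proteases and their inhibitors, of which 14 of 15 others passed the filter. IFI30, the thiol reductase that opens disulfide bonds of antigens, had at most 2 counts in any library. Of its exon bases, 40.2% are shared with another gene on the same strand, so its counts are uncertain. In the combined group against WT, 8 were called higher and 3 lower (median 0.23); in YTHDF1 KO 5 and 3 (median 0.23), and in siARID1A 5 and 1 (median 0.17). These stand beside 25.6% higher and 25.9% lower over all genes in the combined group, 19.6% and 20.8% in YTHDF1 KO, and 22.1% and 23% in siARID1A. CTSL, which cuts CD74 in mouse thymic epithelium, had 741 ± 61.6 CPM in the combined group, 323 ± 17.8 in YTHDF1 KO, 245 ± 19.3 in siARID1A and 156 ± 5.56 in WT. The rise of CTSL in the combined group against WT was 2.25 (SE 0.075, adjusted p = 1.96e-17), while the 712 tested genes of its chromosome 9 had a median of -0.38. That chromosome's median against WT was -0.36 in YTHDF1 KO and -0.41 in siARID1A, beside -0.01 over all genes. Each of the other groups thus differed from WT in the median of this chromosome's tested genes, and how much of the chromosome shifted was not tested. The part of that difference in other changes against WT was not tested.

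Other proteases did not all move with CTSS. Against WT in the combined group, CTSH, an aminopeptidase, rose by 1.00 (SE 0.15, adjusted p = 2.32e-07), and LGMN, an asparaginyl endopeptidase, by 0.70 (SE 0.058, adjusted p = 1.13e-08). CSTB, an inhibitor of cathepsins, rose by 1.00 (SE 0.12, adjusted p = 1.87e-10). CTSD, an aspartic protease, fell by 0.92 in YTHDF1 KO against WT (SE 0.062, adjusted p = 2.38e-09) and by 0.82 in the combined group against siARID1A, but 41.7% of its exon bases are shared with another gene on the same strand, so its counts are uncertain. CTSB fell by 0.44 in the combined group against siARID1A (SE 0.056, adjusted p = 1.15e-05).

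HLA-DMB, the beta chain of HLA-DM (ENSG00000242574, chromosome 6, 32934629 to 32941070, minus strand), had the largest fold change of the 5 tested members against WT in all 3 groups. It had 119, 145 and 135 counts in combined libraries 1 to 3, 31, 66 and 37 in YTHDF1 KO, 52, 37 and 95 in siARID1A and 14, 11 and 21 in WT. Its level was 3.51 ± 0.192 CPM in the combined group, 1.15 ± 0.404 in YTHDF1 KO, 1.85 ± 0.858 in siARID1A and 0.418 ± 0.216 in WT. The combined libraries lay above all others and the WT libraries below all others, while YTHDF1 KO and siARID1A overlapped.

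HLA-DMB rose against WT by 3.11 in the combined group (SE 0.37, adjusted p = 9.45e-08), 8.66-fold, by 1.51 in YTHDF1 KO (SE 0.46, adjusted p = 0.00254), 2.85-fold, and by 2.19 in siARID1A (SE 0.52, adjusted p = 3.49e-05), 4.57-fold. The combined group exceeded YTHDF1 KO by 1.60 (SE 0.28, adjusted p = 0.000554) and siARID1A by 0.92 (SE 0.37, adjusted p = 0.0217). The call against siARID1A was lost without siARID1A library 1 (0.82, adjusted p = 0.0881) or 2 (0.68, adjusted p = 0.122) and without combined library 1 (0.88, adjusted p = 0.0622). YTHDF1 KO differed from siARID1A by -0.68 (SE 0.45, adjusted p = 0.0983), a difference that passed without YTHDF1 KO library 2 (-0.997, adjusted p = 0.0366) or without siARID1A library 2 (-0.92, adjusted p = 0.0323). The change with siARID1A in YTHDF1 KO minus that in WT was -0.59 (SE 0.59, adjusted p = 0.472).

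HLA-DMA, the alpha chain of HLA-DM (ENSG00000204257, chromosome 6, 32948613 to 32969094, minus strand), rose against WT in both groups with ARID1A silenced. It had 38, 94 and 42 counts in combined libraries 1 to 3, 12, 21 and 22 in YTHDF1 KO, 68, 45 and 45 in siARID1A and 32, 15 and 31 in WT. Its level was 1.48 ± 0.626 CPM in the combined group, 0.480 ± 0.154 in YTHDF1 KO, 1.60 ± 0.397 in siARID1A and 0.702 ± 0.332 in WT. The combined and siARID1A libraries overlapped each other and lay above all YTHDF1 KO and WT libraries, which also overlapped.

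HLA-DMA rose against WT by 1.11 in the combined group (SE 0.54, adjusted p = 0.0187) and by 1.21 in siARID1A (SE 0.47, adjusted p = 0.0132), and differed by -0.52 in YTHDF1 KO (SE 0.50, adjusted p = 0.356). It was higher in the combined group than in YTHDF1 KO by 1.63 (SE 0.41, adjusted p = 0.00388), and lower in YTHDF1 KO than in siARID1A by 1.73 (log2 difference -1.73, SE 0.32, adjusted p = 0.00101). The combined group differed from siARID1A by -0.10 (SE 0.37, adjusted p = 0.872). The change with siARID1A in YTHDF1 KO minus that in WT was 0.42 (SE 0.63, adjusted p = 0.683).

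These HLA-DMA calls rested on few libraries. The rise in siARID1A was lost without WT library 2 (0.87, adjusted p = 0.0668) or siARID1A library 1 (0.99, adjusted p = 0.0776). The rise in the combined group was lost without WT library 2 (0.76, adjusted p = 0.0987) or combined library 2 (0.70, adjusted p = 0.192), and the difference from YTHDF1 KO without combined library 2 (1.22, adjusted p = 0.0525). A readthrough gene that spans HLA-DMA and HLA-DMB shares 6.87% of the HLA-DMA and 9.41% of the HLA-DMB exon bases. It was listed at 0 counts in all libraries, but all 612 of its exon bases are shared with these genes on the same strand. Its 0 thus does not show that it was silent, and reads in the shared bases cannot be assigned with certainty. With the opposite-strand gene BRD2, which had 3150 to 5739 counts, the share for HLA-DMA is 9.04%, and whether BRD2 reads entered its counts was not tested.

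**Figure D2:**
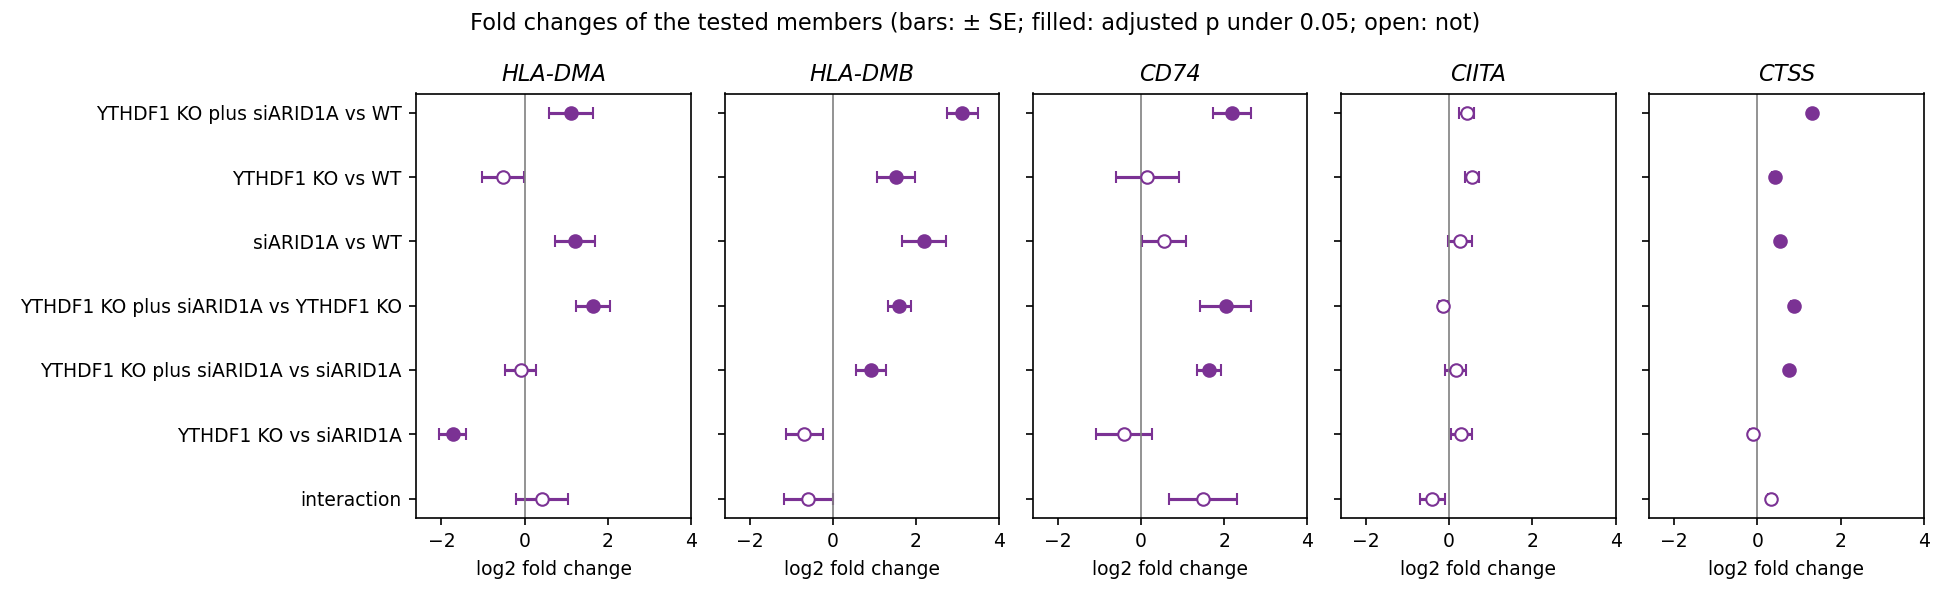
Log2 fold change of each tested member (columns) in the 6 pairwise comparisons and the interaction (rows). Bars are ± SE from the spread between libraries, filled points have an adjusted p under 0.05 and open points do not. CIITA has no filled point, and HLA-DMB and CTSS are filled in all 5 comparisons against WT or of the combined group with 1 change alone.

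For the interaction over the 5 tested members, 0 passed the test in either direction, where 17.1% of all genes did. At an unadjusted p under 0.05 there was 1 member, CTSS, and DESeq2 called 0 as well. A difference between backgrounds was thus not shown for any member, nor was it shown to be absent.

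Per length of exon, CTSS was the highest member and CIITA and HLA-DRA were the lowest. The length is that of all annotated exons of a gene together, 20757 bases for CIITA and 3184 for CD74. The low rank of CIITA depends on that length. In CPM not scaled to length, CIITA stood above CD74 and HLA-DMA in every group. It had 1.92 CPM against 1.49 for CD74 in the combined group, and 1.43 against 0.314 in WT. CTSS had 3.93 CPM per kb in the combined group, 2.14 in YTHDF1 KO, 2.31 in siARID1A and 1.59 in WT. HLA-DMB had 0.754 CPM per kb in the combined group, against 0.0897 in WT, and HLA-DMA had 0.586 and 0.277 in these groups. CD74 had 0.469 CPM per kb in the combined group and 0.0987 in WT, and CIITA 0.0923 and 0.0690. In comparison, RFX5 had 13.5 CPM per kb in the combined group and 14.6 in WT, and CTSL had 313 and 65.8. The HLA genes among them are subject to the limit on the MHC region given above.

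**Figure D3:**
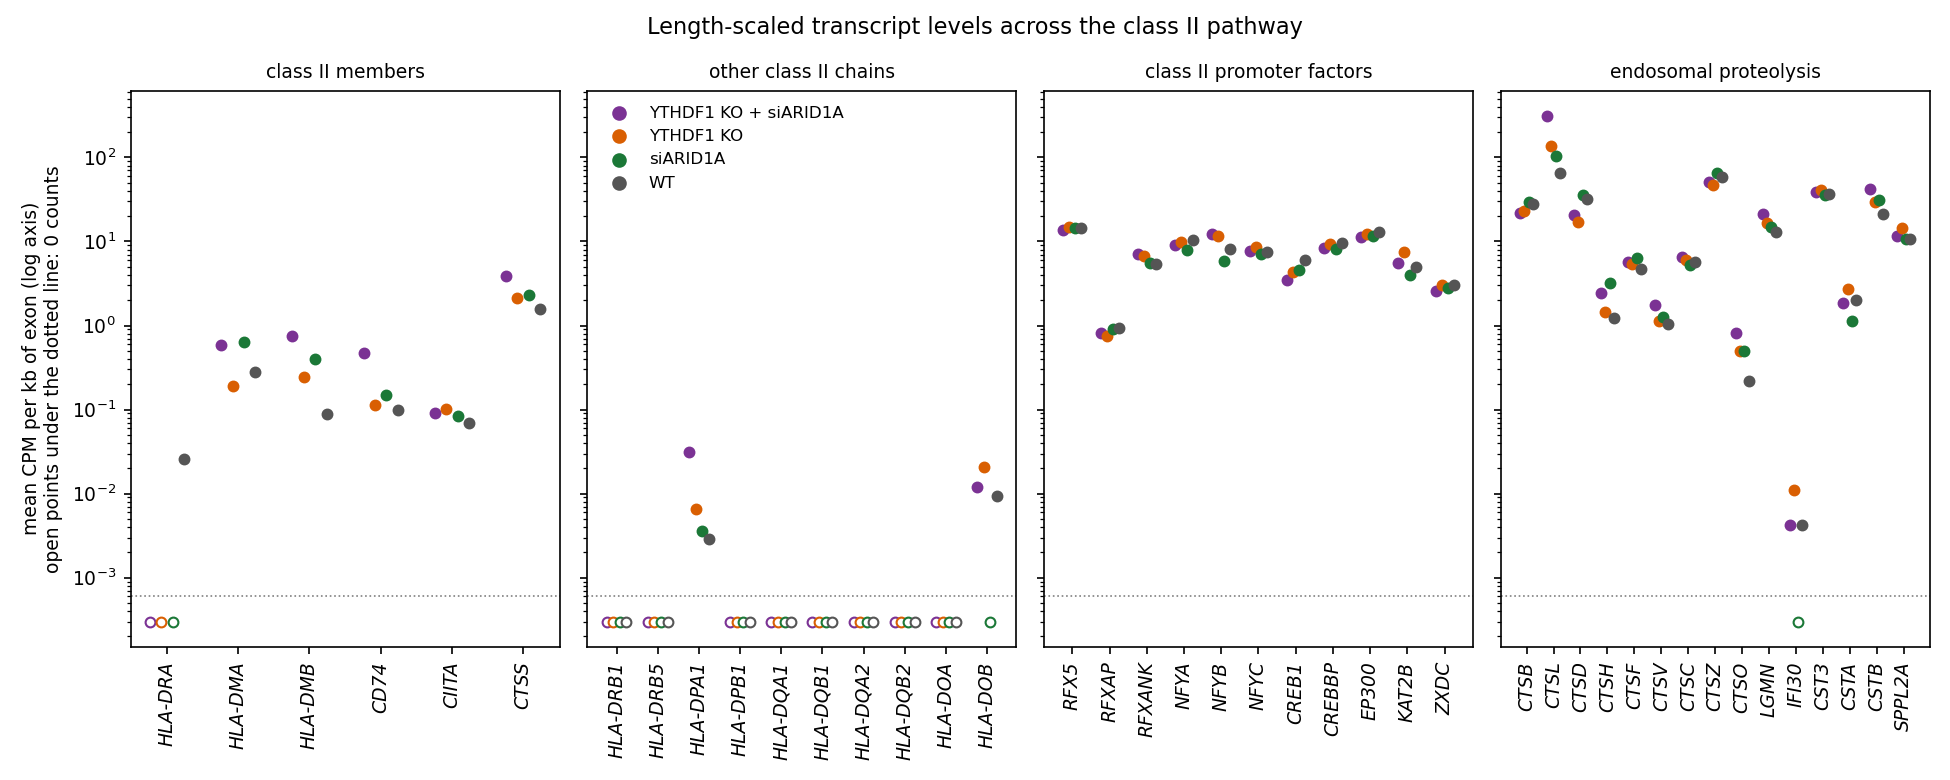
Mean level per kilobase of exon (CPM per kb, log axis) of the members, the other class II chains, the promoter factors and the endosomal proteases, by group. Each point is the mean of 3 libraries, and open points under the dotted line mark groups with 0 counts. The class II chains lie at or near 0, the members mostly between 0.0690 and 3.93, and RFX5 between 13.5 and 14.8.

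The members did not share one pattern across the 12 libraries. Pearson's r of log2 CPM was 0.918 between HLA-DMB and CTSS and 0.807 between CD74 and CTSS, 0.632 between HLA-DMB and CD74 and 0.621 between HLA-DMA and HLA-DMB. It was -0.214 between HLA-DMA and CIITA. These values describe 12 libraries that fall into the same 4 groups, and hold differences between groups as well as within them.

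Genes with the most similar pattern were sought for members with a mean of at least 1 CPM, which leaves out CD74. They were USP18 (r = 0.983), C1QL1 (r = 0.982) and HLA-C (r = 0.982) for CTSS, and STAMBPL1 (r = 0.969), RAB11A (r = 0.967) and SMIM14 (r = 0.965) for HLA-DMB. For HLA-DMA they were MKRN1 (r = 0.957), AGTRAP (r = 0.923) and PDE6D (r = 0.913), and for CIITA RWDD4 (r = 0.886), MCL1 (r = 0.870) and ZNF670 (r = 0.863), all over the same 12 libraries.

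Genes that act on class II molecules at the cell surface, or beside them in T cell contact, moved in both directions. Of 7 genes of surface turnover, all tested, the combined group had 3 higher and 2 lower against WT (median 0.21), YTHDF1 KO 2 and 0 (median 0.08), and siARID1A 4 and 1 (median 0.50). The shares over all genes were those given above for these comparisons. The tetraspanin CD82 rose by 0.76 in the combined group (adjusted p = 0.00346), 0.81 in YTHDF1 KO (adjusted p = 0.00281) and 1.29 in siARID1A (adjusted p = 1.36e-05). CD83, which keeps class II at the surface of dendritic cells, rose by 0.94 in the combined group (adjusted p = 0.00583). The tetraspanin CD81 fell by 0.41 in the combined group (adjusted p = 0.000165) and by 0.51 in siARID1A.

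Of 8 genes of costimulation and adhesion, 6 passed the filter, CD86 was at 0 throughout and CD80 had at most 12 counts. Against WT, 2 were higher and 3 lower in the combined group, 2 and 2 in YTHDF1 KO, and 1 and 1 in siARID1A. Over all genes, 25.6% were higher and 25.9% lower in the combined group. Those shares were 19.6% and 20.8% in YTHDF1 KO, and 22.1% and 23% in siARID1A. CD40, the receptor of CD40 ligand, rose by 2.73 in the combined group (SE 0.13, adjusted p = 2.31e-14), 1.94 in YTHDF1 KO (adjusted p = 2.96e-11) and 2.08 in siARID1A (adjusted p = 1.69e-11). ICAM1, the adhesion ligand of LFA-1, had 23, 27 and 27 counts in the combined libraries, 30, 20 and 34 in YTHDF1 KO, 4, 0 and 8 in siARID1A and 2, 5 and 0 in WT. With WT this close to the floor, its fold is imprecise. It rose by 3.46 in the combined group (SE 0.47, adjusted p = 0.000357) and by 3.59 in YTHDF1 KO (adjusted p = 0.00032). CD58, the ligand of CD2, fell by 0.64 in the combined group, 0.46 in YTHDF1 KO and 0.67 in siARID1A, and CD70, the ligand of CD27, by 0.90 in the combined group and 0.82 in YTHDF1 KO.

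**Figure D4:**
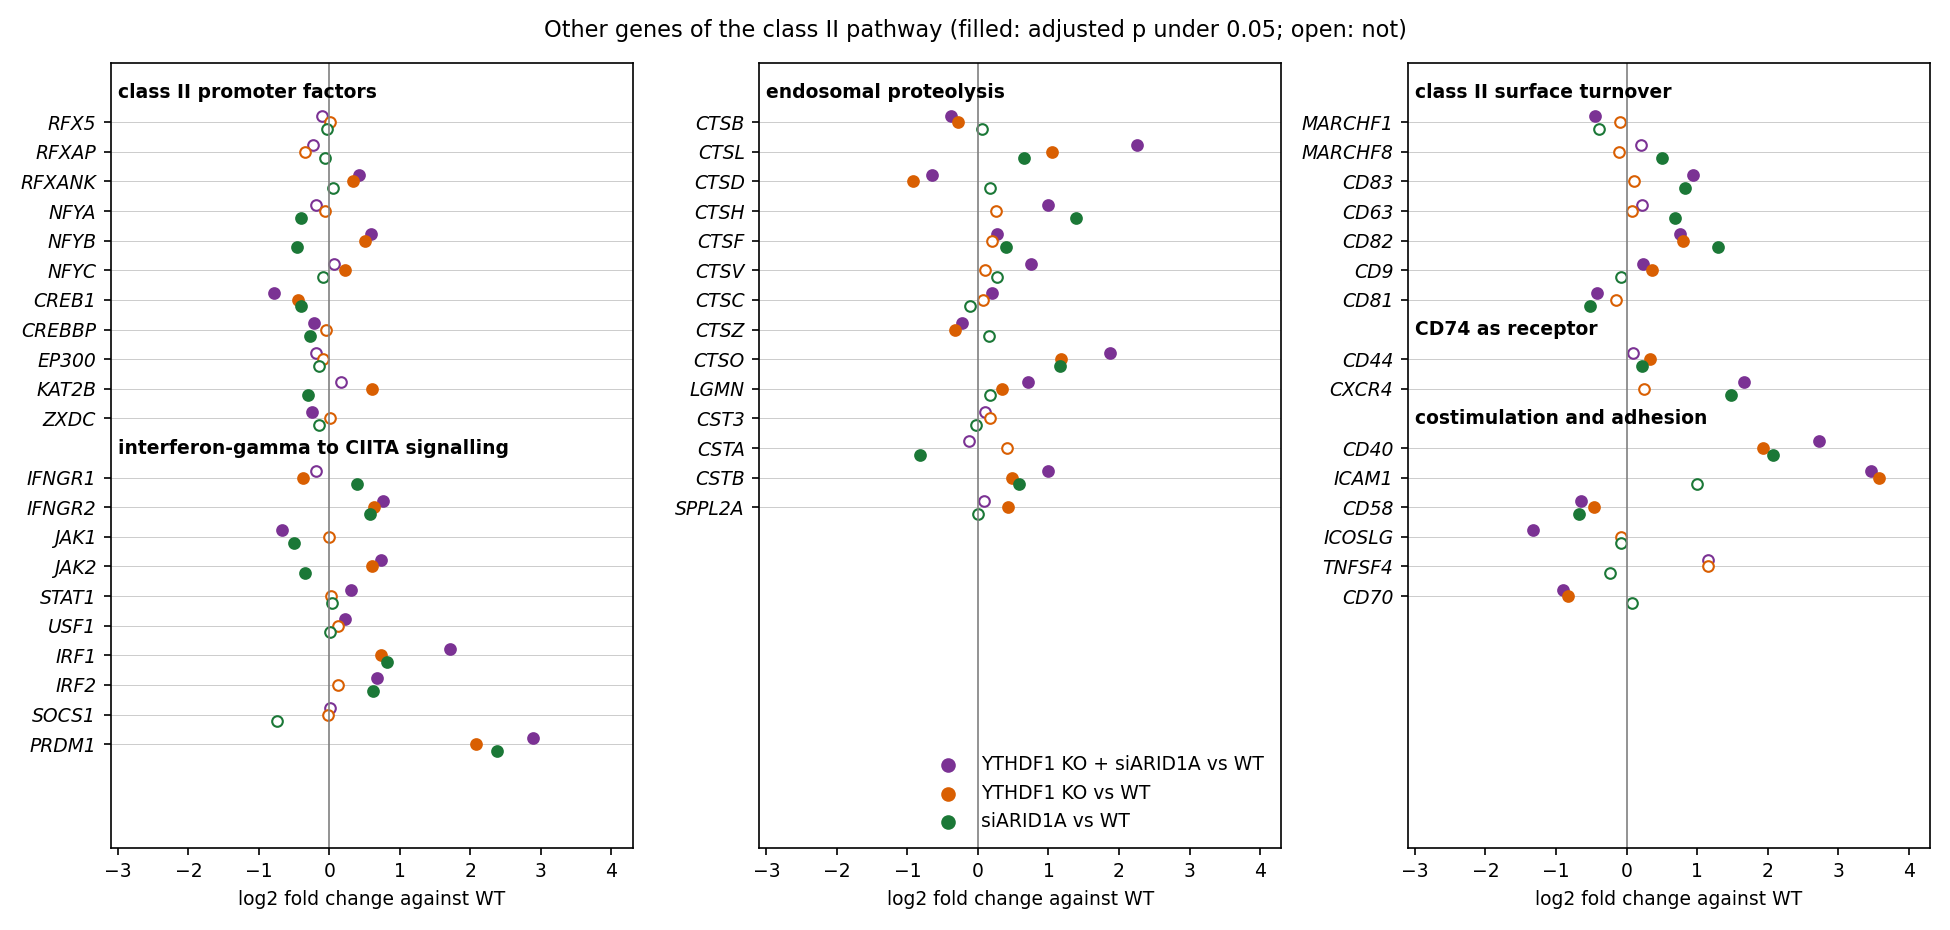
Log2 fold change against WT of the other pathway genes that passed the filter, grouped by role (rows), for the combined group, YTHDF1 KO and siARID1A (colours). Filled points have an adjusted p under 0.05 and open points do not. Promoter factors stay between -0.79 and 0.61, while PRDM1, CD40, ICAM1 and CTSL lie furthest to the right, with 2.89, 2.73, 3.46 and 2.25 in the combined group.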

How the data were processed

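Total RNA of 12 A549 libraries was made into stranded libraries, per the labels' protocols. The authors deposited 1 table of raw gene counts, whole numbers with no normalization, and per the submitters' processing notes the tools named are featureCounts 2.0.1, edgeR 3.32.1, Trim Galore 0.6.6 and STAR 2.7.0d, with the build GRCh38. The annotation release, the strand setting and the treatment of multiply mapped reads are not given in the sources used here. Groups came from the library names in the sample descriptions.

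The analysis of these counts used edgeR 4.0.16 under R 4.3.3: filterByExpr (minimum count 10; 18524 genes tested, 42093 left out), TMM scaling (factors 0.912 to 1.06) and 1 robust quasi-likelihood fit of 12 libraries with 1 coefficient per group. CPM used a prior count of 2 on the log2 scale. The interaction is the change with siARID1A in YTHDF1 KO minus that in WT. Symbols matched 60261 IDs, and positions and exon lengths are from GENCODE 29. The scripts were tested on simulated data. Library totals of at least 30220717 set the precision: 3 counts were 0.0663 to 0.0942 CPM per library.

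Besides the 6 members, the named genes were YTHDF1 and ARID1A as checks, up to 4 called genes of smallest p per list and comparison, and the 3 genes of most similar pattern per member; those of the MHC region and genes named for low counts were added after their values were seen. Members and lists were chosen with earlier results of these data known, and support nothing by themselves. RFX5 was named as the DNA-binding subunit after its values were seen. Alternatives were RLE scaling, library totals, no filter, DESeq2 1.42.0, a replicate block, a fit of the compared groups alone and leaving out each library.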

Additional observations from a re-analysis of the deposited data

Results flagged for a closer look

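The change with siARID1A differed between the YTHDF1 KO and WT backgrounds, by edgeR's test of that difference, for 11 of 50 tested genes of the pathway lists (22%) and for 0 of the 5 tested members. The values are log2 changes with siARID1A in YTHDF1 KO minus those in WT. Over all genes tested, 17.1% passed this test, a share near that of the lists.

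Positive values were found for NFYB (0.55, adjusted p = 0.00197), CTSL (0.55, adjusted p = 0.000758) and JAK2 (0.47). CTSL and JAK2 lie on chromosome 9, whose 712 tested genes had a median of 0.39 in this test, against 0.02 over all genes. JAK2 did not pass under RLE scaling (adjusted p = 0.0567), library totals (0.0757), no filter (0.0535) or the replicate block (0.0553), nor with any of 8 libraries left out (WT 2, YTHDF1 KO 1 to 3, siARID1A 1 or 2, combined 2 or 3), when adjusted p ran from 0.0611 to 0.129.

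Negative values were found for PRDM1 (-1.57), CD82 (-1.34, adjusted p = 0.00157), CD40 (-1.28, adjusted p = 2.21e-05), CTSH (-0.65, adjusted p = 0.00965), CD63 (-0.55, adjusted p = 0.00544), CD44 (-0.45, adjusted p = 0.00305), IFNGR2 (-0.45, adjusted p = 0.0276) and SPPL2A (-0.33, adjusted p = 0.0219). PRDM1, CD82 and CD40 rose with siARID1A in WT by 2.37, 1.29 and 2.08. The combined group exceeded YTHDF1 KO by 0.80 in PRDM1 and 0.79 in CD40. IFNGR2 did not pass without YTHDF1 KO library 2 or 3, siARID1A library 1 or 2, or combined library 3 (adjusted p = 0.0536 to 0.0962). SPPL2A did not pass without YTHDF1 KO library 1 or 2, siARID1A library 2, or combined library 1 or 3 (adjusted p = 0.0505 to 0.0709).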

How the results depend on the processing

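Of 125 alternative counts of members called, 123 stayed within 1.5 times the reported count. The exception was YTHDF1 KO against siARID1A, with 1 to 2 members when 1 library was left out, the higher number without YTHDF1 KO library 2 or siARID1A library 2. Of 625 alternative member fold changes, 607 kept their direction and side of the threshold, 8 lost a call, 3 gained one and 7 changed sign. Sign changes, none of them in a called value, came with 1 library left out. CD74 ran from -0.56 (without YTHDF1 KO library 2) to 0.58 in YTHDF1 KO against WT, with -0.18 without WT library 3, and from -1.11 to 0.03 (without YTHDF1 KO library 1) against siARID1A. CIITA ran from -0.016 (without siARID1A library 2) to 0.41 in siARID1A against WT. HLA-DMA ran from -0.51 to 0.13 (without siARID1A library 1) in the combined group against siARID1A, with 0.04 and 0.10 without combined library 1 or 3. The cause was not tested.

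No clear pairing by replicate number was seen, nor was pairing shown to be absent. The 18 correlations of same-numbered libraries ran from -0.042 to 0.033. Of 36 best matches, each picked among the 3 libraries of another group, 17 had the same number. With the replicate block, 4, 3 and 2 members were called in the combined group, siARID1A and YTHDF1 KO against WT, as without it, and the members' counts in the other comparisons were the same too. With library totals the median of all genes in the combined group against WT moved by 0.135, and the share of calls that were higher was 63.4% against 49.7% with TMM (61.2% against 48.5% in YTHDF1 KO against WT, 63.5% against 53.5% and 62.2% against 51.3% in the combined group against YTHDF1 KO and siARID1A). HLA-DRA and the other class II chains were too low to test at this depth.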
